A study of Mus musculus with 35 samples.

Results

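Chromatin accessibility was compared between DNMT_WT and TET_WT, the parental lines of a DNMT knockout family and a TET knockout family of mouse embryonic stem cells, at 1 day of epiblast-like differentiation (D1). The 6 libraries, DNMT_WT replicates 1 to 3 and TET_WT replicates 1 to 3, were chosen by line and day from the labels, out of 35 libraries in the series. Both groups are wild type for the targeted genes and share the treatment, in which cells leave the naive state held by 2i and Lif and are taken towards the epiblast-like state. The assay was ATAC-seq on 10000 cells per library, in which the Tn5 enzyme cuts accessible DNA and tags the cut ends for sequencing. The knockout lines of the same day, DNMT_KO (triple knockout of Dnmt1, Dnmt3a and Dnmt3b) and TET_KO (triple knockout of Tet1, Tet2 and Tet3), with 3 libraries each, entered the same model and served as a second pair of lines from the 2 families. Each line stands for 1 cell line, so a difference between families cannot be told apart from a difference between 2 lines, and since no label says that replicates come from separate cultures, the p-values cover no more than the variation among these libraries, part of which could be technical.

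Genome-wide read density carries a further kind of information in such data. In closed chromatin the transposase inserts rarely but everywhere, so the number of background reads on a chromosome follows how much of that chromosome the cells hold, while open regulatory regions stand above this background as local peaks. Cultured mouse embryonic stem cells are known to gain whole chromosomes, and separate lines can also differ in strain, in copy number of repeated gene families and in the regulatory elements they use. Differences between the lines were therefore read at 4 scales, from whole chromosomes through windows to single 2-kb tiles and genes.

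The 3 TET_WT libraries held 9199476, 6383025 and 7465419 autosomal reads, and the 3 DNMT_WT libraries 5665529, 6739387 and 3660471. These are reads recovered from the deposited values. Summed over all tiles, they were 2.037 to 2.046 times the library totals that the deposited RPKM imply. Whether each recovered read is a separate DNA fragment was not tested. The median tested tile held 16, 11 and 13 reads in TET_WT and 10, 11 and 7 in DNMT_WT. Mitochondrial reads made up 5.63%, 19.2% and 14.1% of TET_WT and 27%, 28.9% and 9.93% of DNMT_WT, and their part in the differences was not tested. The deposited values of tested tiles were lower in DNMT_WT by a median of 0.21 log2 units, and tile and gene changes are given after quantile normalisation, that is, relative to this shift. All changes are log2 differences, DNMT_WT minus TET_WT, given ± the standard error estimated by limma, and a feature is called when its 2-sided adjusted p (Benjamini-Hochberg) is under 0.05.

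Whole chromosomes differed first. Background density, the log2 mean reads per background tile of a chromosome minus the median over the 19 autosomes of the same library, was called for 2 of 19 autosomes (10.5%), chromosome 1 and chromosome 14. On chromosome 1 it was 0.47, 0.41 and 0.52 in the DNMT_WT libraries and -0.27, -0.08 and -0.05 in the TET_WT libraries. Every DNMT_WT library lay above every TET_WT library, and the group levels were 0.46 ± 0.05 and -0.13 ± 0.12 (SD, n = 3 each). The difference was 0.60 ± 0.08 (limma adjusted p = 3.89e-07). For scale, 3 copies against 2 would give 0.58 on this axis, and copy number itself was not measured. On chromosome 14 the order was the opposite, with -0.18, -0.27 and -0.12 in DNMT_WT against 0.23, 0.33 and 0.33 in TET_WT, a difference of -0.49 ± 0.09 (limma adjusted p = 4.42e-05). The groups did not overlap on either chromosome, as on 26.3% of the autosomes.

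Chromosomes 6 and 11 leaned towards TET_WT without passing the test. Chromosome 6 stood at -0.04, -0.03 and 0.13 in DNMT_WT and at 0.23, 0.20 and 0.32 in TET_WT, a difference of -0.22 ± 0.09 (limma adjusted p = 0.0886). Chromosome 11 differed by -0.18 ± 0.08 (limma adjusted p = 0.138). Both were called when only the 2 parental lines were fitted or when the background was a mean of log2 values, and chromosome 6 also without DNMT_WT replicate 3. Chromosome 8 was high in both parents, at 0.38 ± 0.06 in DNMT_WT and 0.43 ± 0.08 in TET_WT (SD, n = 3 each), and the difference between them was -0.05 ± 0.06 (limma adjusted p = 0.808). The parents thus shared a raised chromosome 8 and differed on chromosomes 1 and 14.

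**Figure D1:**
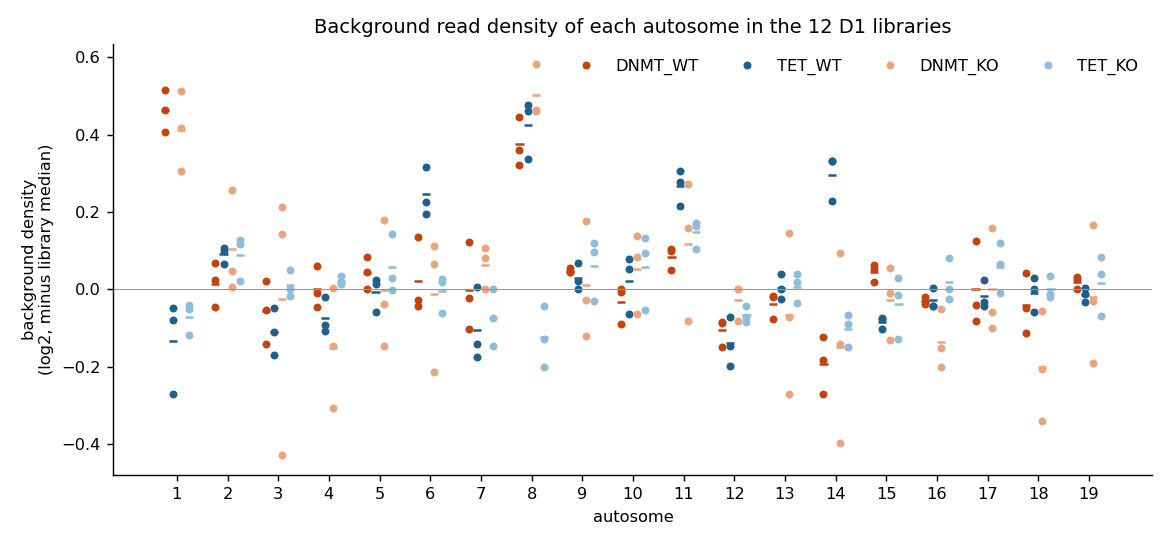
Background read density of the autosomes in the D1 libraries, on the y axis as log2 mean reads per background tile minus the median of the 19 autosomes in the same library. Points are libraries of the 4 lines and short bars are group means. On chromosome 1 the DNMT_WT points lie at 0.41 to 0.52 and the TET_WT points at -0.27 to -0.05, on chromosome 14 the order is reversed, and on chromosome 8 both parents lie high.

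The same chromosome levels stood at the other days of the series, in libraries that did not enter the comparison. Chromosome 1 was at 0.46 in DNMT_WT and -0.13 in TET_WT in naive cells (D0), and at 0.48 and -0.08 after 2 days (D2). Chromosome 14 was at -0.15 and 0.33 at D0 and at -0.19 and 0.30 at D2. Chromosome 6 was at -0.03 and 0.21 at D0 and at -0.06 and 0.20 at D2, so its tilt recurred in separate libraries although it was not called at D1. These values are given as a description, with no test across days.

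Windows of 5 Mb showed how far along each chromosome the differences ran. Of 498 windows, 72 were called (14.5%), 45 higher in DNMT_WT (9.04%) and 27 lower (5.42%). All 39 windows of chromosome 1 were called higher, and their changes ran only from 0.43 to 0.79 with a median of 0.62. The 5 largest rises were all on chromosome 1, led by the window from 20 to 25 Mb (0.79 ± 0.09). On chromosome 14, 18 of 25 windows were called lower, with a median over the chromosome of -0.48. The 5 largest falls were all there and were led by the window from 15 to 20 Mb (-0.72 ± 0.14). Chromosome 1 therefore differed over its whole mapped length, and chromosome 14 over most of it.

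Chromosome 6 was uneven. All 8 called windows lay in its last 9 windows, from 105 Mb to the end, where the median difference was -0.41 (range -0.49 to -0.32). The 21 windows before 105 Mb had a median of -0.11 (range -0.27 to -0.01). In the last part TET_WT stood at a median of 0.41 and DNMT_WT at 0.00, while before it they stood at 0.12 and -0.01. The whole-chromosome value of -0.22 is thus a mean over a larger difference at the distal end and a smaller one elsewhere. This end of chromosome 6 holds Nanog and Dppa3, genes of the naive pluripotency network. Of the remaining calls, 3 windows on chromosome 15 between 10 and 30 Mb and single windows on chromosomes 4, 7 and 12 were higher in DNMT_WT, and 1 window on chromosome 17 was lower. The window on chromosome 4, from 140 to 145 Mb, differed by 0.35 ± 0.10 (limma adjusted p = 0.0163). Fitting only the 2 parental lines raised the count of called windows to 130.

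**Figure D2:**
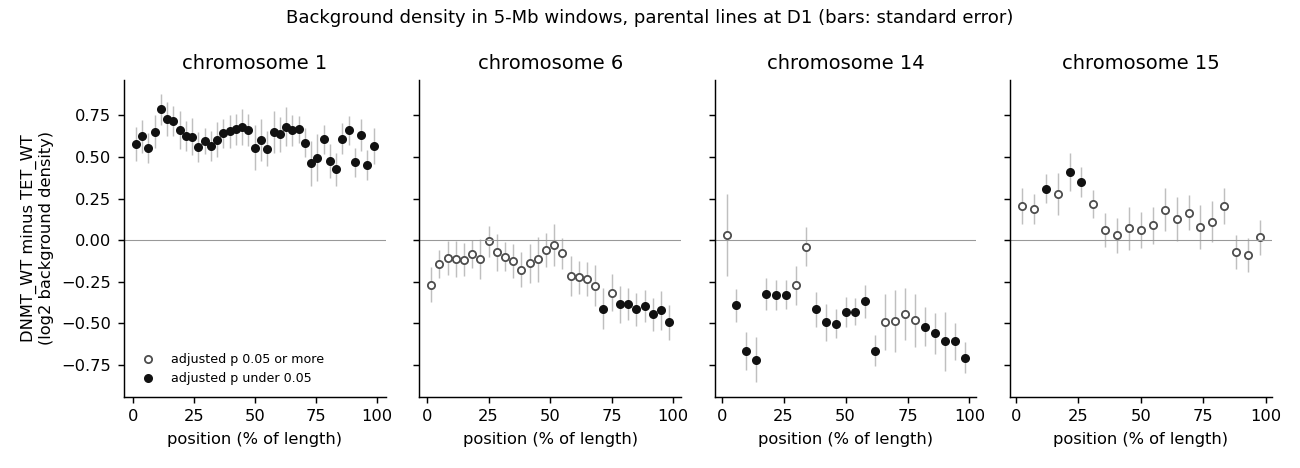
Difference in background density between DNMT_WT and TET_WT at D1 in 5-Mb windows along chromosomes 1, 6, 14 and 15, in log2 units on the y axis and by position as a percentage of the chromosome's length on the x axis. Filled points are windows called at an adjusted p under 0.05, and bars are standard errors. Chromosome 1 is level between 0.43 and 0.79, chromosome 14 is mostly below 0, and the called windows of chromosome 6 are at its end.

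Shorter stretches differed in addition to whole chromosomes. In 200-kb windows, with the chromosome's own density subtracted, 59 of 11788 were called (0.501%), 40 higher (0.339%) and 19 lower (0.161%) in DNMT_WT, and adjacent calls joined into 41 segments. The longest segment was 1000 kb on chromosome 4, from 149.6 to 150.6 Mb, with changes of -1.19 to -0.71 in its 5 windows. It held 334, 360 and 320 RPM (reads per 1000000 autosomal reads) in DNMT_WT and 643, 577 and 566 in TET_WT, so TET_WT stood 1.76-fold higher with no overlap. DNMT_KO was at 318 and TET_KO at 598, close to the parent of its own family in each case. The segment spans 12 protein-coding genes, among them Pik3cd, a catalytic subunit of phosphoinositide 3-kinase, Slc2a5, a fructose transporter, H6pd, a sugar phosphate dehydrogenase of the endoplasmic reticulum, and Eno1, a glycolytic enolase. Without 1 of the 6 parental libraries 25 to 36 windows were called, and with only the 2 parental lines fitted 585, so the list of single windows depends on the fit more than the chromosomes do.

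Several of these segments kept their direction in the knockout lines of the same families. On chromosome 9, from 46.8 to 47.2 Mb, DNMT_WT held 180, 209 and 178 RPM and TET_WT 108, 98.2 and 108. DNMT_KO stood at 194 and TET_KO at 110 there. On chromosome 8, from 32.6 to 33.2 Mb over Nrg1, which encodes the growth factor neuregulin, DNMT_WT was 1.58-fold higher. The values were 346, 436 and 371 RPM against 232, 246 and 250. TET_KO was at 186, but its density was low over the whole of chromosome 8, at -0.12 ± 0.08 against 0.42 ± 0.08 in TET_WT (log2, SD, n = 3 each). With the chromosome subtracted the 3 windows changed by 0.34 to 0.57 between the knockout lines, and 0 of the 3 were called there. On chromosome 17, from 6.4 to 6.6 Mb around Dynlt1b, a dynein light chain gene, DNMT_WT stood at 95.3 ± 20.7 and TET_WT at 38.6 ± 0.166 RPM (SD, n = 3 each). On chromosome 7, from 26.0 to 26.2 Mb over the cytochrome P450 genes Cyp2b9 and Cyp2b13, the order was the opposite, with 16.1, 20.2 and 21 in DNMT_WT against 35, 34.6 and 39.2 in TET_WT. Both knockout lines stood near DNMT_WT there, at 17.5 and 20.1.

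A second set of segments held fewer reads at D0 and D2 than at D1. The D0 and D2 libraries are not described as processed like those of D1. Mitochondrial tiles, for instance, held 0% of the reads in every D0 and D2 library. What processing adds to contrasts between days, here and wherever a tile had no read at D0 or D2, was not tested. In 63 of the 11788 windows (0.534%) the depth-scaled reads of the D0 and D2 libraries were under 0.5 times those at D1. Of these windows 19 were called, all higher in DNMT_WT, which is 30.2% against 0.341% of the other windows. In 18 of the 19 every TET_WT library stood below every library of the other 3 lines in depth-scaled reads. The exception lies on chromosome 8 from 21.0 to 21.2 Mb, where TET_WT overlapped TET_KO. The difference between the parental and the knockout contrast was called in 8 of the 19, in 1 of the 40 other called windows and in 0.144% of all windows. Both sets of called windows were picked by the parental contrast, which is part of that difference, so their shares are not like that of all windows. On chromosome 7 from 8.2 to 8.6 Mb, over the pheromone receptor genes Vmn2r42 to Vmn2r45, TET_WT held 1.3, 2.82 and 2.95 RPM and DNMT_WT 18.9, 24.8 and 21.3. DNMT_KO was at 29.3 and TET_KO at 28.2, so the TET_WT libraries were the low ones. On chromosome 8 from 21.4 to 21.6 Mb, over alpha-defensin genes of antimicrobial peptides, TET_WT held 0.761, 0.157 and 0.536 RPM against 7.77, 7.27 and 8.20. DNMT_KO was at 9.02 there and TET_KO lay between, at 4.34. The called windows at 7.4 Mb of chromosome 7 (Vmn2r32 and Vmn2r33), at 11.4 Mb (Zscan4f) and between 18.4 and 24.4 Mb of chromosome 12 had the form of the Vmn2r42 to Vmn2r45 segment. All of these genes belong to families with many near-identical copies, where reads are hard to assign, and they were picked out after their values were seen. Of the 19 windows 0 were also called between the knockout lines in the same limma model and 11 had the same sign there, whereas of the 40 other called windows 9 were called and 34 had the same sign. Over all windows 0.373% were called between the knockout lines and 60.8% had the same sign in both contrasts. The part that read assignment plays in the TET_WT values was not tested.

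**Figure D3:**
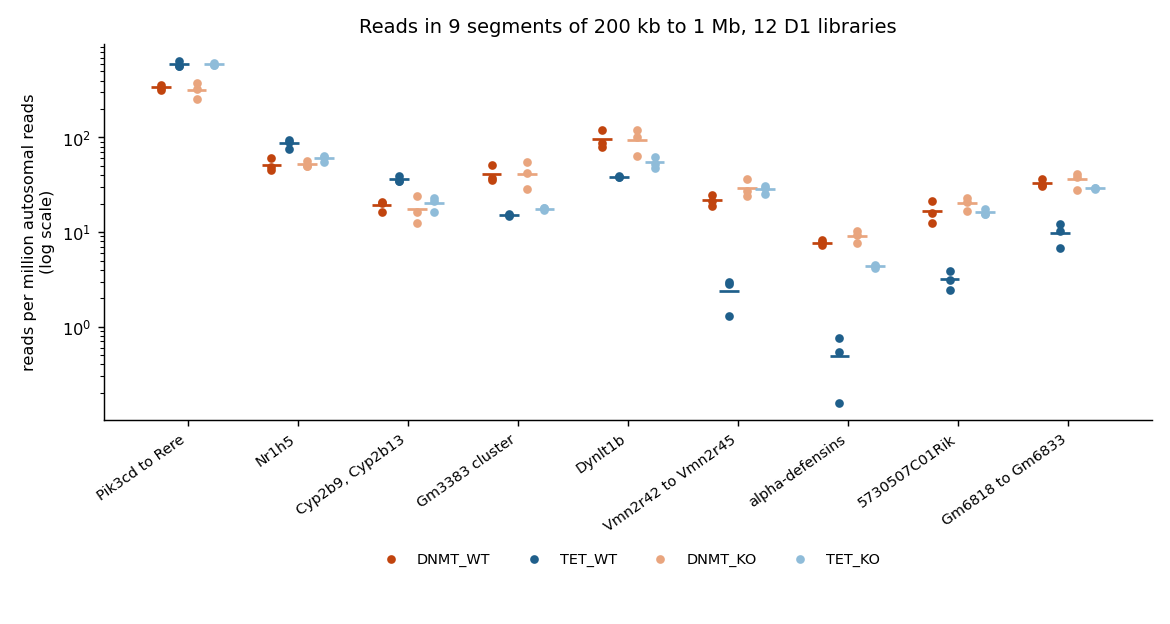
Reads per 1000000 autosomal reads in segments of adjacent called 200-kb windows, on a log axis, for the libraries of the 4 lines at D1. Points are libraries and bars are group means. In the segment from Pik3cd to Rere both TET lines lie above both DNMT lines. In the Vmn2r segment only TET_WT lies low, and in the alpha-defensin segment TET_WT lies lowest with TET_KO next above it.

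Single tiles were tested with the chromosome difference left in and taken out. Of 123139 tested autosomal tiles of 2 kb, 385 were called before centring (0.313%), 244 higher (0.198%) and 141 lower (0.115%) in DNMT_WT. Chromosomes 1 and 14 held 193 of these, or 50.1%, although they hold 13% of the tested tiles. On chromosome 1 there were 144 tiles called higher and 1 lower, and on chromosome 14 there were 48 called lower and 0 higher. The median tile of chromosome 1 stood at 0.63 and that of chromosome 14 at -0.55, near the background values of 0.60 and -0.49. After each chromosome was centred on its background, 133 tiles were called (0.108%), 74 higher (0.0601%) and 59 lower (0.0479%). Chromosomes 1 and 14 then held 28 calls (21.1%), and their median tiles stood at 0.04 and -0.06. Of the 385 tiles 121 remained called, 264 were called only before centring and 12 only after it.

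The count of single tiles depended on the scaling. With the values as deposited, not normalised, 8 tiles were called after centring, 7 of them among the 133, and 12.5% of the 8 were higher in DNMT_WT against 55.6% of the 133. With library medians equalised 12 were called, 33.3% of them higher, and without 1 of the 6 parental libraries 37 to 73. Every one of the 133 kept its direction in every setting in which it was tested. Before centring the share of calls that were higher was 63.4%, against 19.2% as deposited and 50% with medians equalised.

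**Figure D4:**
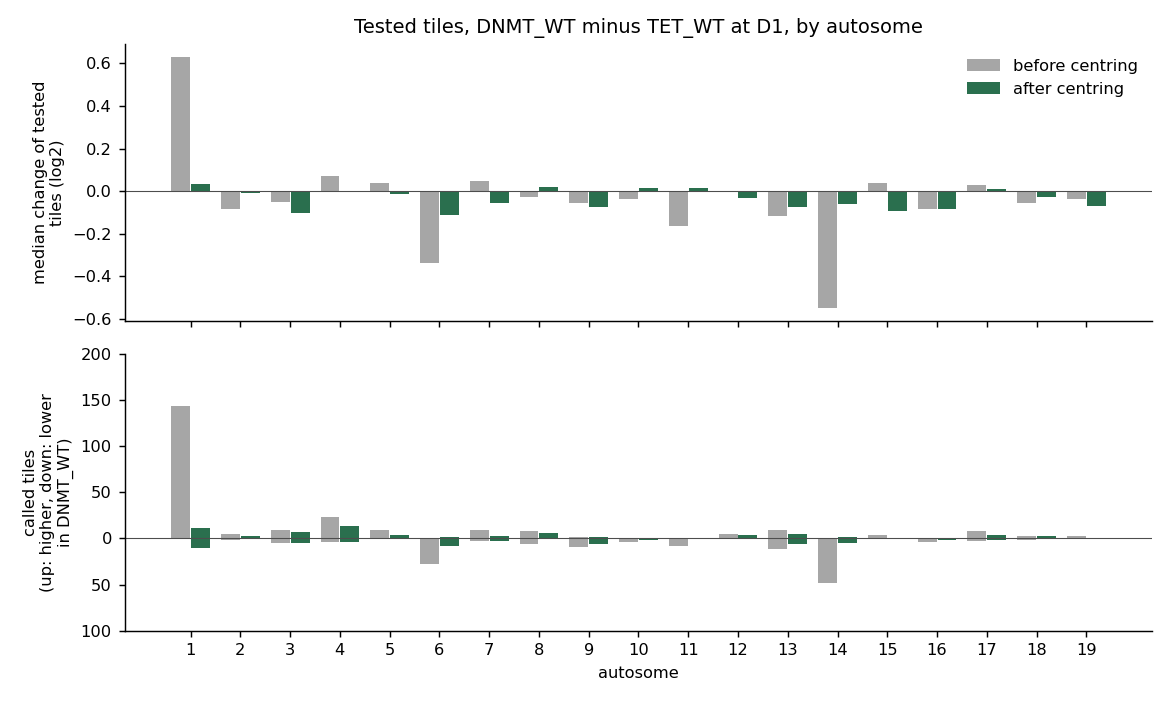
Median change of the tested tiles (top, log2) and number of tiles called higher (up) and lower (down) in DNMT_WT than in TET_WT (bottom) at D1 on each autosome, before and after centring each chromosome on its background density. Before centring chromosome 1 has 144 tiles higher and chromosome 14 has 48 lower, and after centring chromosomes 1 and 14 together hold 28 of 133 calls.

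All 133 tiles differed by at least 2-fold, and in each the 2 groups did not overlap, which was so for 15% of all tested tiles. A transcription start lay in 9.67% of tested tiles, in 6 of the 74 higher tiles (8.11%) and in 3 of the 59 lower ones (5.08%). Tiles between genes made up 36.6% of those tested, 56.8% of the higher and 52.5% of the lower tiles. Tiles with reads at D1 only made up 0.365% of those tested, but 3 of the 74 higher tiles (4.05%) and 9 of the 59 lower ones (15.3%).

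Among tiles lower in DNMT_WT, that in Tbc1d15 kept its call in every setting and with each parental library left out. Tbc1d15 encodes a GTPase-activating protein for Rab proteins, and the tile lies in the gene on chromosome 10, 115200001 to 115202000. It held 4, 13 and 4 reads in DNMT_WT and 45, 73 and 61 in TET_WT, a change of -2.71 ± 0.41 (limma adjusted p = 7.83e-04). Scaled to depth it stood at 8.17 ± 3.27 reads per 1000000 autosomal reads in TET_WT and 1.24 ± 0.625 in DNMT_WT (SD, n = 3 each). Between the knockout lines the tile leaned the same way, by -1.49, and was not called there.

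The largest of the 12 named falls was near H4c11, a replication-dependent histone H4 gene (chromosome 13, 21728001 to 21730000). This tile held 3 reads in each DNMT_WT library and 61, 28 and 29 in TET_WT, a change of -3.20 ± 0.53 (limma adjusted p = 2.50e-03). Both knockout lines were low there too, with 7, 5 and 2 reads in DNMT_KO and 8, 4 and 9 in TET_KO, so TET_WT was the high line. Next came a tile near Gm39469 (chromosome 9, 124256001 to 124258000), with 2, 11 and 4 reads against 57, 43 and 67 and a change of -3.14 ± 0.42. It had no read at D0 or D2. A further 8 named falls lay in or near Adamts9, an extracellular matrix protease gene, 1600014C10Rik, Atxn7l1, Lingo1, Zc3h12a, which encodes a ribonuclease that degrades inflammatory mRNAs, Pld5, Gm5148 and Cd47, which encodes a surface protein that restrains phagocytes. Their changes ran from -2.69 to -2.48. The tile near Lingo1 lost its call with any 1 of the 6 parental libraries left out. That in 1600014C10Rik, like that near Gm39469, had no read at D0 or D2.

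Tiles higher in DNMT_WT held a median of 20.7 reads in DNMT_WT and 7 in TET_WT, against 5.67 and 35 in the lower tiles. These reads are not scaled to depth, and over all tested tiles the medians were 9 in DNMT_WT and 13 in TET_WT. A tile in Slamf9, a receptor gene of the SLAM family on chromosome 1 (172458001 to 172460000), held 24, 32 and 18 reads in DNMT_WT and 3, 8 and 3 in TET_WT. Its change was 2.83 ± 0.47 (limma adjusted p = 3.00e-03), and the tile beside it was called too. A tile 25.1 kb from Lamb1, which encodes the laminin beta 1 chain (chromosome 12, 31238001 to 31240000), held 13, 14 and 14 reads against 6, 2 and 4, a change of 2.74 ± 0.46 (limma adjusted p = 3.09e-03). The largest of the 12 named rises was that of the tile holding the start of 5730507C01Rik (2.94 ± 0.51), which lies in one of the repeated stretches of chromosome 12. The others lay in or near Gm13212, Gm8909, Dclre1a, a DNA crosslink repair gene, Il17f, a cytokine gene, Sez6l, Dynlt1b, Abca4, Tmem131l and Zfp990, with changes of 2.53 to 2.92. Those of Slamf9, Lamb1 and Gm13212 kept their call with each parental library left out. The tiles of 5730507C01Rik and Zfp990 had no read at D0 or D2.

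Called tiles were mostly isolated. After centring there were 8 pairs of adjacent called tiles, near Slamf9, Tbl1xr1, A430005L14Rik, Epdr1 and Rbfa (higher in DNMT_WT) and near Rfx8, 1600014C10Rik and Nuggc (lower), and no longer run. Before centring there were 3 runs of 3 tiles, near Mroh2a, Slamf9 and Epdr1, all higher.

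**Figure D5:**
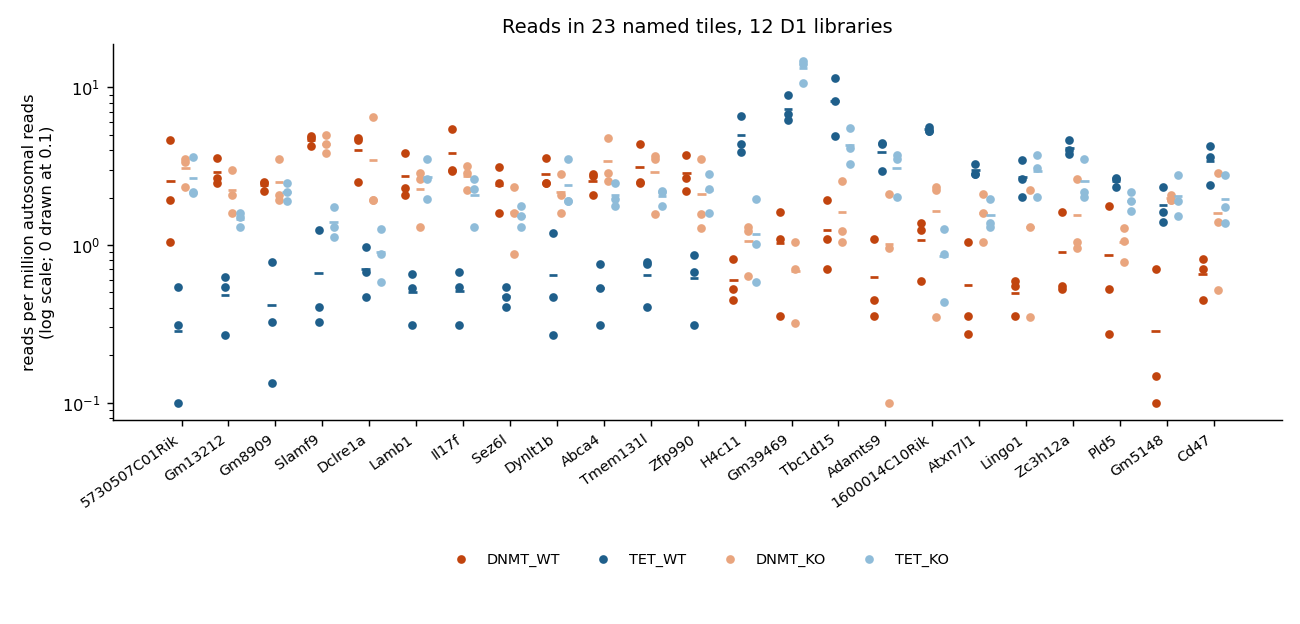
Reads per 1000000 autosomal reads in 23 of the named tiles for the libraries of the 4 lines at D1, on a log axis with 0 drawn at 0.1. Points are libraries and bars are group means. In each of the 23 tiles the DNMT_WT and TET_WT points do not overlap. Tiles were named only where the centred values did not overlap, which was so for 15% of all tested tiles.

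Of the 133 tiles, 9 held the start of a gene. That of Eomes, the T-box factor that directs mesendoderm and trophoblast development, was lower in DNMT_WT, with 15, 9 and 11 reads against 57, 41 and 52 in TET_WT (-1.59 ± 0.35, limma adjusted p = 0.0415). DNMT_KO held 25, 11 and 15 reads there and TET_KO 25, 35 and 28. The starts of Chchd6, a gene of the mitochondrial cristae machinery (9, 7 and 6 reads against 54, 30 and 42), and of Cltb, a clathrin light chain gene (8, 7 and 2 against 28, 26 and 22), were lower by 1.79 ± 0.36 and 1.82 ± 0.39 log2 units. The start of Dop1b was higher, with 67, 68 and 37 reads against 47, 42 and 27 (1.26 ± 0.25, limma adjusted p = 0.0206). Since these lines are parents of mutants in DNA methylation, whose substrate is the CpG, the 250 bases before each of the 4 starts are shown from RefSeq on GRCm38.p6, 5' to 3' on the strand of the gene, with every CpG in capitals. Eomes is on chromosome 9 (118477939 to 118478188, plus strand), Chchd6 on chromosome 6 (89595653 to 89595902, minus strand), Cltb on chromosome 13 (54611374 to 54611623, minus strand) and Dop1b on chromosome 16 (93711657 to 93711906, plus strand).
Eomes: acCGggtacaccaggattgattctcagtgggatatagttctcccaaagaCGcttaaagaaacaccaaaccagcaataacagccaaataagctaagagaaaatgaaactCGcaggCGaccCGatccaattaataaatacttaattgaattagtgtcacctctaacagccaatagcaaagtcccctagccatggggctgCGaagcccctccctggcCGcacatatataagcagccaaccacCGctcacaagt
Chchd6: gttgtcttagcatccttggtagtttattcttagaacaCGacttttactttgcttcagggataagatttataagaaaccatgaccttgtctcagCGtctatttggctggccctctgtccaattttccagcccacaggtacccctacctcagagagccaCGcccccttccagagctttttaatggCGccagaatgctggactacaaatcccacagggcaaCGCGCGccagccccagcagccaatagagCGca
Cltb: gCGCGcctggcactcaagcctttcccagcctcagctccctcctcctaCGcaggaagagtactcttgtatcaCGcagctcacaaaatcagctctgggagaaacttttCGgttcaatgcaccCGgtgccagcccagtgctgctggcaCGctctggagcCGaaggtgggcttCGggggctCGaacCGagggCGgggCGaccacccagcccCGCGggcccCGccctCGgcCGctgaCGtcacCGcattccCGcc
Dop1b: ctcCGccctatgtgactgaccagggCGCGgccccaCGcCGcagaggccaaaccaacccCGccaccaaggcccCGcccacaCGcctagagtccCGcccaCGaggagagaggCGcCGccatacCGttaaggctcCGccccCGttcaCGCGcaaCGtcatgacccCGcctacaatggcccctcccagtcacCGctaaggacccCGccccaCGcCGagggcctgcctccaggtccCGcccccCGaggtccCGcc
Eomes and Chchd6 carry 8 CpGs each, Cltb 21 and Dop1b 26. Over 31396 autosomal start sites the median was 6 CpGs in such a stretch, 92.4% held at least 1 (the letters CG read the same on both strands), and 43.5%, 16.8% and 9.89% held at least 8, 21 and 26. The other starts in called tiles were Fam131c (24 CpGs), Fblim1 (9), 5730507C01Rik (28), Gm2974 (20) and Gm33049 (1), all higher in DNMT_WT. Starts in called tiles thus ran from CpG-poor to CpG-dense, and methylation itself was not measured here.

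Genes were read as the mean of the tested tiles over a gene and 10 kb on each side. Of 17311 genes, 15 were called after centring (0.0867%), 7 higher (0.0404%) and 8 lower (0.0462%) in DNMT_WT. Before centring 576 were called (3.33%). The highest call was 5730507C01Rik (2.94 ± 0.45), whose value is that of its 1 tested tile, already named above. Gm8909 and Gm10499 followed, histocompatibility-like genes that share their 2 tiles (2.21 ± 0.30). The other rises were those of Arhgef10l, a guanine nucleotide exchange factor gene (1.24 ± 0.15), Tulp4 (1.23 ± 0.20), Padi3, a peptidylarginine deiminase gene (1.17 ± 0.20), and Glp1r, which encodes the receptor of the incretin GLP-1 (1.10 ± 0.17). Tulp4 rests on 2 tiles. Over 41 tiles, Arhgef10l stood at 0.79, 0.98 and 0.94 in DNMT_WT and at -0.23, -0.38 and -0.39 in TET_WT (normalised log2 RPKM). Arhgef10l (140514485 to 140666007), Padi3, and the called starts of Fam131c and Fblim1 all lie between 140 and 145 Mb of chromosome 4, the window whose background was also called higher. With the background taken per 5-Mb window Arhgef10l was still called (0.97 ± 0.14) and Padi3 was not (0.90 ± 0.16, limma adjusted p = 0.0547).

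Lower in DNMT_WT were Nr1h5, a nuclear receptor gene (-1.67 ± 0.29), Ccdc175 (-1.59 ± 0.27), Gm39469 (-1.47 ± 0.21), Mrps35, a mitochondrial ribosomal protein gene (-1.17 ± 0.16), Cd2, a T-cell adhesion gene (-1.13 ± 0.19), Lhx8, a LIM homeobox gene (-1.07 ± 0.18), Tmem201 (-1.06 ± 0.17) and Hoxa7, a homeobox gene (-0.91 ± 0.15). Ccdc175 rests on 1 tested tile and Cd2 on 2. Hoxa7 (chromosome 6, 52215623 to 52218573) stood at 0.13, 0.22 and 0.25 in DNMT_WT and at 1.31, 1.03 and 0.99 in TET_WT. Nr1h5 and Tmem201 lie in called 200-kb segments, the latter in the 1000-kb stretch of chromosome 4, and Mrps35 (147042728 to 147070906) at the distal end of chromosome 6. With the background taken per 5-Mb window, Nr1h5, Tmem201 and Mrps35 were no longer called (limma adjusted p = 0.0986, 0.0936 and 0.0709). The gene calls depended on the fit, and limma called 0 genes with values as deposited, with medians equalised, with only the 2 parental lines fitted, and without DNMT_WT replicate 1. As reported, 1855 genes had an unadjusted p under 0.05.

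In 20 lists of genes for known states of these cells and for pathways, 0 genes were called in either direction by limma. Core pluripotency genes, which mark all these cells, stood at 0.37 ± 0.04 in DNMT_WT and 0.34 ± 0.18 in TET_WT above the mean of all genes (SD, n = 3 each), and Pou5f1, a core pluripotency factor, differed by 0.04 ± 0.18. Fibroblast genes, which would mark feeder cells, lay below the mean of all genes in both, at -0.20 ± 0.12 and -0.18 ± 0.16, with 7 of 13 above 0 and 6 below in the comparison. Over all 17311 genes, 7261 changes were above 0 and 10050 below, with a median of -0.05.

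Naive pluripotency genes leaned to one side. Of 20 measured, 19 had a change below 0, with a median of -0.17 and 0 called. Their mean level above all genes was 0.01, 0.07 and 0.13 in DNMT_WT and 0.30, 0.24 and 0.21 in TET_WT. The groups did not overlap, which was so for 6 of the 20 lists, and both knockout lines lay near DNMT_WT or below it, between -0.09 and 0.02. Nanog, a homeobox factor of the naive network, stood at 0.63, 0.06 and 0.19 in DNMT_WT and at 0.86, 1.00 and 0.89 in TET_WT (-0.62 ± 0.21, limma adjusted p = 0.297). It lies in the distal part of chromosome 6, and with the background taken per 5-Mb window its change was -0.45 ± 0.20. Klf2, a Kruppel-like factor on chromosome 8, stood at 0.37, 0.01 and 0.54 against 1.09, 0.73 and 0.75 (-0.55 ± 0.20, limma adjusted p = 0.325). Esrrb, Gbx2 and Tfcp2l1, also factors of this network, were at -0.01, -0.01 and 0.02.

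Formative genes had a median of -0.14, with 12 of 19 below 0, and Fgf5, a growth factor of the epiblast, was at -0.65 ± 0.32 (limma adjusted p = 0.494). Neuroectoderm genes had a median of -0.18 (10 of 14 below 0), with Olig2, a neural basic helix-loop-helix factor, at -0.90 ± 0.19 (limma adjusted p = 0.0999). Primitive streak and mesoderm genes had a median of -0.23 (8 of 15 below 0), and their member with the largest change was Gsc, an organizer homeobox gene, at -0.92 ± 0.20 (limma adjusted p = 0.102). Clustered protocadherins had a median of -0.14 (44 of 56 below 0). Core pluripotency, primitive endoderm, LIF response and detoxification genes had medians above 0, of 0.04, 0.04, 0.05 and 0.12. In the detoxification list Dnah8, a dynein heavy chain gene beside Glp1r on chromosome 17, was at 0.85 ± 0.19 (limma adjusted p = 0.115).

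In the remaining lists the largest changes were those of Asz1 among methylation-dependent germline genes (-1.29 ± 0.80), Tdpoz3 among two-cell-like genes (-0.97 ± 0.22), Mirg among imprinted genes (-0.89 ± 0.39), Erg, an ETS factor, among haematopoietic regulators (0.89 ± 0.20) and Tdg, the thymine DNA glycosylase of the demethylation pathway, in the methylation machinery (-0.69 ± 0.21). None was called, with limma adjusted p-values of 0.602, 0.115, 0.425, 0.115 and 0.231. The medians of these lists were 0.01, -0.04, -0.07, 0.00 and -0.01. In the lists for fibroblast, trophoblast, MAPK, Wnt, housekeeping and histocompatibility genes the largest changes were those of Fbn1 (-0.83), Krt18 (0.58), Spred1 (-0.64), Notum (-0.61), Actb (-0.40) and Ifi202b (0.75), and none was called. The 6 genes targeted in the knockouts are intact in both parents by their labels. Their changes were 0.05 for Dnmt3a, 0.04 for Dnmt3b, -0.12 for Dnmt1, -0.12 for Tet1, -0.39 for Tet2 and -0.01 for Tet3, with standard errors of 0.16 to 0.19. All but that of Tet2 changed sign in some setting.

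The DNMT and TET knockout lines were then set against each other at the same day, as a second comparison of the 2 families with no library shared with the first. Chromosome 1 was higher in DNMT_KO by 0.48 ± 0.08 (limma adjusted p = 7.74e-06), one of 3 called autosomes (15.8%). Chromosome 14 differed by -0.05 ± 0.09, with TET_KO at -0.10 ± 0.04 and TET_WT at 0.30 ± 0.06 (SD, n = 3 each). Chromosome 8 differed by 0.63 ± 0.06 (limma adjusted p = 8.31e-10), with TET_KO at -0.12 ± 0.08 and the 3 other lines between 0.38 and 0.50. Tests of the difference between the 2 comparisons called these 2 chromosomes, chromosome 8 (-0.68 ± 0.08, limma adjusted p = 2.11e-07) and chromosome 14 (-0.44 ± 0.12, limma adjusted p = 0.0103), of 19 (10.5%), and not chromosome 1 (0.11 ± 0.11).

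At the level of tiles, 80 were called between the knockout lines (0.065%), 22 higher (0.0179%) and 58 lower (0.0471%) in DNMT_KO, and 7 of them were among the 133 parental calls, which is 5.26% of the parental and 8.75% of the knockout calls. All 7 were lower in the DNMT line of each pair. They include tiles in or near Nod1, which encodes a sensor of bacterial peptidoglycan, Gm39469, Tmem267 (with 2 tiles), Nuggc and, 150 kb away, Adcyap1. Those of Gm39469 and Tmem267 had no read at D0 or D2. The tile in Nod1 (chromosome 6, 54952001 to 54954000) held 10, 5 and 2 reads in DNMT_WT, 32, 36 and 44 in TET_WT, 10, 3 and 2 in DNMT_KO and 51, 59 and 31 in TET_KO. Of the 133 tiles, 102 (76.7%) had the same sign between the knockout lines, against 55.6% of all tested tiles. For lower tiles this was 53 of 59, with a median knockout change of -0.97, and for higher tiles 49 of 74, with a median of 0.40. The median knockout change of all tested tiles was -0.10. The difference between the 2 comparisons was called for 9 tiles (0.00731%), 6 above 0 (0.00487%) and 3 below (0.00244%). Its largest values were at tiles 60.3 kb from Hspb3 and 63.7 and 65.7 kb from Epdr1, where TET_WT was low and the 3 other lines were not. The count of knockout calls rested on single libraries, with 445 without DNMT_KO replicate 3 and 21 without TET_KO replicate 3.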

How the data were processed

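ATAC-seq of 10000 cells per library, amplified with 13 PCR cycles per the labels' protocols, was processed with Trim Galore 0.6.5, cutadapt 2.3, Bowtie2 2.4.1 and GRCm38, per the submitters' processing notes. The handling of duplicates and masked regions and any read shift are not given in the sources used here. Values are log2 RPKM per 2-kb tile, as the authors deposited them for 35 libraries, per the file headers. All values were whole multiples of 1 read within 0.01 read, with an empty tile at 0.9 read, and reads were recovered from these steps.

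Tested tiles were the highest 10% of autosomal tiles by mean over the 12 D1 libraries (123139, minimum -0.16). Quantile normalised values entered limma 3.58.1 in R 4.3.3, with a mean-variance trend and 4 groups of 3 (8 residual degrees of freedom, median prior 34.2). Background tiles were the other 1052992 autosomal tiles with a read, and centring subtracted the chromosome's background density from each tile. Gene values averaged tested tiles within 10 kb of a gene, with positions from RefSeq GRCm38.p6, and 355 of 365 list genes were matched on autosomes. The fit was tested on simulated data.

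Members and lists were chosen with earlier results of these data known. Named were, among called tiles where no DNMT_WT library overlapped TET_WT, the 12 largest rises and falls, 1 per gene within 50 kb, the called genes (10 per direction at most), per list up to 4 called genes or the member with the largest change, the 6 targeted genes, called chromosomes, the 5 longest runs and the 5 extreme windows per direction. A few named genes are left out of the text. Alternatives were values as deposited, library medians equalised, other filters, log2 of reads plus 2, thinned reads, voom, other sets of libraries, a replicate block, other backgrounds and each library left out. The 200-kb windows (at least 40 background tiles each) and the restriction to tiles with a read at D0 or D2 were chosen after seeing the data.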

Additional observations from a re-analysis of the deposited data

Results flagged for a closer look

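Differences between the parental comparison and the comparison of the knockout lines of the same 2 families, tested in the same limma model, picked out the results here, and no explanation was weighed for any of them. The parental change minus the knockout change was -0.68 for chromosome 8 and -0.44 for chromosome 14. In both cases 1 line stood apart within its family: TET_KO was low on chromosome 8, and TET_WT was high on chromosome 14.

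The same difference was called for 9 tiles. It was 4.43 near Hspb3, 3.96 and 3.59 in the adjacent pair near Epdr1, 2.98 near Cryba4, 2.91 near Cntn5 and 2.47 in Rassf3. The tiles lay 60.3 kb from Hspb3, 63.7 and 65.7 kb from Epdr1, 212.5 kb from Cryba4 and 201.2 kb from Cntn5. In these 6 tiles TET_WT held the fewest reads of the 4 lines. Near Hspb3 it held 11, 1 and 1 reads, against 32, 26 and 15 in DNMT_WT, 29, 18 and 7 in DNMT_KO and 39, 35 and 32 in TET_KO. The difference was -2.38 in 1600014C10Rik, where TET_WT was the high line with 64, 70 and 55 reads against 19, 17 and 10 in DNMT_WT. It was -3.57 near Apod and -3.45 near Ccr1, where TET_KO was the low line (8, 5 and 0 reads near Apod, 4, 1 and 4 near Ccr1) and the parents themselves did not differ by the test. The tiles in 1600014C10Rik and near Ccr1 had no read at D0 or D2.

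Among 200-kb windows the difference was called in 17 (0.144% of all windows). Given here are only the 9 of them that were also called between the parents. It was 4.82 at 8.2 Mb, 2.46 at 8.4 Mb, 2.29 at 7.4 Mb and 2.09 at 15 Mb of chromosome 7, and 3.84 at 21.4 Mb of chromosome 8. On chromosome 12 it was 1.91 at 18.4 Mb, 1.42 at 19.6 Mb and 2.25 at 22.8 Mb, and on chromosome 14 it was 1.49 at 44.2 Mb. TET_WT was the low line in each of these 9 windows, which were picked by a call between the parents. Their segments, where they hold annotated genes, hold members of families with many similar copies.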

How the results depend on the processing

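Chromosomes 1 and 14 kept their direction and their call in all 11 settings run for them, over ranges of 0.53 to 0.64 and -0.52 to -0.45. The count of called chromosomes was 5 with only the 2 lines fitted and 4 with the background as a mean of log2 values, and that of 5-Mb windows was 130 with only the 2 lines. Tile and gene counts moved far more, in this order: tiles before centring (385), tiles after centring (133), genes (15), knockout tiles (80) and tiles whose 2 comparisons differed (9). As deposited the counts were 26, 8, 0, 24 and 0, with medians equalised 54, 12, 0, 45 and 0, with reads thinned to the lowest depth 43, 10, 3, 32 and 0, with no filter on low values 231, 208, 86, 463 and 36, and with all 35 libraries fitted 1677, 706, 268, 763 and 62. With limma voom on the recovered reads 905 tiles before centring, 319 after it and 22 differences were called, and with log2 of reads plus 2 there were 134 knockout tiles and 15 differences. With only the 2 lines compared 647 tiles before centring, 0 genes and 18 knockout tiles were called, with the highest 5% of tiles 1 gene, with the background per 5-Mb window 14 differences, and with only tiles that have a read at D0 or D2 7 genes. Leaving out 1 library gave 126 to 222 tiles before centring, 37 to 73 after it, 0 to 10 genes, 21 to 445 knockout tiles and 1 to 23 differences. The cause was not tested, except that thinning and leaving out libraries use fewer reads or samples.

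Replicate numbers did not pair the libraries: deviations from the group mean correlated by -0.02, 0.03 and -0.02 between same-numbered libraries. With the replicate number as a block, 372 tiles before centring, 132 after it, 5 genes, 64 knockout tiles and 77 windows were called. Among single results, only the uncalled targeted genes changed sign. Dnmt3a was at -0.129 as deposited and -0.173 with no filter, and without 1 library ran from -0.027 to 0.156. Dnmt3b was at -0.146 as deposited, -0.0070 with medians equalised and -0.086 with no filter, and ran from -0.077 to 0.130 without 1 library. Tet1 was at 0.071 and Dnmt1 at 0.015 with the highest 5% of tiles, and without 1 library they ran from -0.204 to 0.023 and from -0.214 to 0.038. Tet3 was at 0.140 with the highest 5%, 0.101 with no filter, 0.040 with reads plus 2, 0.0065 with voom, 0.0121 with only the 2 lines and 0.0123 with the mean of log2 values, and ran from -0.162 to 0.079 without 1 library. The depth of 7 to 16 reads in the median tested tile limits the tests of single tiles.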

Other observations

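Some tiles held no read at all in one parental line. With a minimum of 20 reads over the 3 libraries of the other line, 77 tiles were empty in DNMT_WT and 15 in TET_WT, a rule set after the data were seen. The DNMT_WT libraries held 16065387 autosomal reads in all and those of TET_WT 23047920, so DNMT_WT was the shallower line, and the part of depth in these counts was not tested. Of the 77, 31 lie on chromosome 14 and 15 on chromosome 6, where the background was the higher in TET_WT. Of all 1052992 background tiles, which include these, chromosome 14 holds 53980 and chromosome 6 holds 65161. Of the 77, 39 were also empty in DNMT_KO. TET_KO had reads in 72 of the 77. For these counts in the knockout lines no share over all tiles was taken. In 48 of the 77 no D0 or D2 library had a read, which was so for 1.80% of the autosomal tiles with reads. By nearest gene, Pcdh17 (5 tiles), a protocadherin gene, and Dad1 (4 tiles), a subunit of the oligosaccharyltransferase, were the most frequent. These tiles lay 42.4 to 1450 kb from Pcdh17 and 463.5 to 729.5 kb from Dad1. None of the 92 tiles passed the filter on low values, so 0 were tested.

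Of the 15 tiles empty in TET_WT, 8 lie in Arhgap21, a gene for a GTPase-activating protein on chromosome 2, between 20926001 and 20946000. The 8 tiles held 2 to 16 reads in each DNMT_WT library and 0 in each TET_WT library, and TET_KO had reads in all of them. All 15 tiles had no read at D0 or D2 in any line.

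Y-chromosome tiles held reads equal to 0.0867 to 0.122% of the autosomal reads in the DNMT_WT libraries at D1 and to 0.0388 to 0.0577% in those of TET_WT, and the groups did not overlap. Autosomal tiles with reads at D1 only numbered 21220 (1.80% of tiles with reads), and they held 1.32%, 1.66% and 1.54% of the autosomal reads of TET_WT and 1.24%, 1.32% and 0.947% of those of DNMT_WT.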
